A study of Rattus norvegicus with 12 samples.

Results

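The comparison described here is week 29 against week 15 in rat esophagus after exposure to NMBA (N-nitrosomethylbenzylamine), a nitrosamine that gives rise to squamous tumors of the rat esophagus. It uses the 3 arrays of each of these weeks, 6 of the 12 arrays in the series, and every probe set on the array except the manufacturer's controls, 31042 of 31099. The labels call week 15 the middle stage and week 29 the late stage of tumor development. Rats of both groups had received 0.3 mg NMBA per kg body weight in 0.2 ml under the skin, 3 injections per week over 5 weeks, in a mixture of dimethyl sulfoxide and water. The other 6 arrays, 3 of solvent-injected control rats and 3 of NMBA rats at week 6 (the early stage), entered the fit for the estimate of spread and are used for reference levels. Submucosa and muscularis were stripped from part of the esophagus before RNA was extracted. The labels name no strain, sex or age and no week for the control samples. They also leave unsaid whether a sample held visible tumor and whether every array came from its own animal, so the spread behind each p-value may be partly technical.

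The lining of the rat esophagus is a stratified squamous epithelium. Basal cells marked by Krt5, Krt14 and Tp63 divide, leave the basement membrane and turn on Krt4, Krt13 and then the precursors of the cornified envelope. Beneath lies a lamina propria of fibroblasts, vessels, nerves and leukocytes with a thin smooth muscle layer, and outside these the muscularis, which in the rat is made of striated muscle. In this carcinogenesis model the epithelium passes through hyperplasia and dysplasia to papillomas.

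Markers of all these layers gave signal on the arrays of both weeks. Krt5, Krt14, Krt4 and Krt13 lay at a log2 signal of 11.94 or above on every array of weeks 15 and 29. Genes of striated muscle gave strong signal too, in tissue from which the muscularis had been stripped. The sarcomere score, the mean log2 signal of 47 genes of the sarcomere and of excitation-contraction coupling, was 9.87, 10.44 and 8.99 at week 15 and 11.26, 11.52 and 11.55 at week 29. The groups did not overlap, and the means were 9.77 ± 0.73 and 11.44 ± 0.16 (SD, n = 3). The control arrays lay between 10.59 and 11.05 and the week 6 arrays between 11.37 and 11.47, so week 15 was the lowest group and week 29 stood close to week 6. The difference between the 3' and 5' control probe sets of GAPDH, which grows as RNA degrades, was 0.40 ± 0.19 at week 15 and 0.17 ± 0.04 at week 29. The adipocyte markers Adipoq and Plin1 had means near the bottom of the signal range (4.19 and 4.05 in controls), and neither passed the test. In such bulk samples, fewer cells of a type and less RNA per cell cannot be told apart.

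Between week 15 and week 29, 10987 of 31042 probe sets (35.4%) were called by limma at an adjusted p under 0.05. Of these, 5303 (17.1%) were higher and 5684 (18.3%) lower at week 29. With 1 probe set per gene, 6192 of 14217 genes (43.6%) were called, 3002 (21.1%) higher and 3190 (22.4%) lower, and the values of 7411 genes (52.1%) did not overlap between the groups. The median log2 fold change of all genes was -0.02, with quartiles at -0.31 and 0.24. Genes listed for 3 compartments separated by direction (the plot of listed genes). The lists were chosen with earlier results of these data known, so their counts describe the listed genes and are no independent test. Of 165 measured epithelial genes, 134 were lower and 0 higher, and of 132 striated muscle genes, 114 were higher and 1 lower. The 192 stromal genes were divided, with 46 higher, 35 lower and a median of 0.05. When the sarcomere score was added to the fit as a covariate, 0 probe sets were called, and 4245 had an unadjusted p under 0.05 against 13749 without it. That covariate differs between the groups with no overlap and widens the standard errors, so its values are given beside each compartment below.

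**Figure D1:**
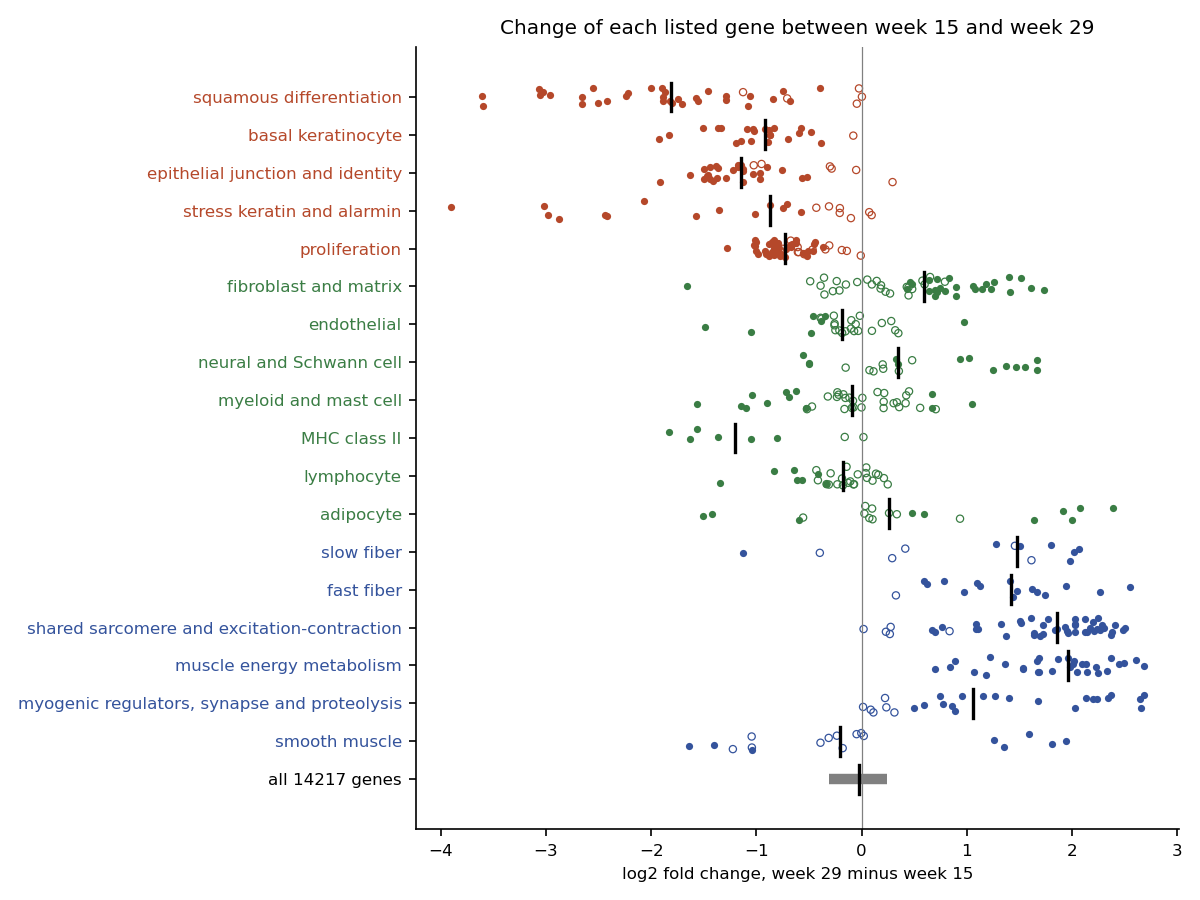
Log2 fold change from week 15 to week 29 (horizontal axis) of each measured gene in the epithelial, stromal and muscle lists. Filled points passed the limma test, open points did not, black bars are list medians, and the grey bar spans the quartiles of all 14217 genes, -0.31 to 0.24. All called epithelial genes lie to the left and all but 1 of the called striated muscle genes to the right.

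The 10 largest falls among genes whose groups did not overlap were mostly in genes of the upper squamous layers. Stfa3, a stefin-type inhibitor of cysteine proteases, gave 12.02, 13.64 and 13.03 at week 15 and 8.69, 9.53 and 8.76 at week 29, a 14.9-fold fall. Its probe set belongs to a multigene family and can cross-hybridize, and the gene was not called when the median of its probe sets was used. Sprr3, Sprr1b, Sprr2d and Sprr1a, small proline-rich precursors of the cornified envelope, and Cnfn, the envelope protein cornifelin, fell between 8.15-fold and 12.2-fold. Serpinb12, a serine protease inhibitor of keratinocytes, fell 9.65-fold. Ocm, the calcium-binding oncomodulin, fell 9.26-fold, from 8.27, 9.07 and 8.79 to 6.28, 4.97 and 5.25. The 10 largest rises belonged mostly to striated muscle. They included Capn3 (muscle calpain, 6.56-fold), Trim63 (the muscle ubiquitin ligase MuRF1, 6.41-fold), the myogenic factors Myf6 and Myod1, and Ppp1r3a, the glycogen-targeting subunit of protein phosphatase 1 in muscle (6.45-fold). The largest rises of all, D430041D05Rikl (7.40-fold) and Ank1 (an ankyrin, 6.83-fold), were not called with the median of their probe sets.

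Squamous differentiation genes fell as a group. Of 38 measured members, 33 were lower at week 29 and 0 were higher (86.8% lower against 22.4% of all genes), with a median log2 fold change of -1.81. Sprr1b gave 9.35, 10.33 and 10.55 at week 15 and 6.63, 6.53 and 6.28 at week 29, a fall of 3.60 ± 0.32 (SE) on the log2 scale (adjusted p = 4.17e-05, limma). All 3 late arrays lay far under the lowest middle array, and under the control mean of 9.09 and the week 6 mean of 8.03 as well. Sprr3 went from 9.82, 11.91 and 11.01 to 7.30, 7.5 and 7.12 (adjusted p = 0.00011). Cnfn gave 9.80, 12.03 and 11.32 at week 15 and 7.92, 7.87 and 8.18 at week 29, and Sprr2d gave 6.95, 8.20 and 7.29 against 4.69, 4.21 and 4.36. In all 4 genes the first week 15 array was the lowest of its group and the groups did not overlap. The suprabasal keratins changed less. Krt13 fell by 1.06 ± 0.19 (14.30, 14.55 and 14.53 against 13.84, 13.20 and 13.17) and Krt4 fell by 0.84 ± 0.17, both close to the top of the signal range of 14.71. The 5 members that did not pass were Ivl (-0.04), Tgm5 (0.00), Rhcg (-0.02), Krt1 (-1.13) and Krt10 (-0.71), named after their values were seen. Involucrin, the product of Ivl, is a classic envelope precursor.

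Sequence upstream of these genes is shown because the Sprr genes moved together. RefSeq promoters on the rat assembly GRCr8 were found for 33 of the 38 squamous genes, and the 250 bases before each start were searched on both strands for TGANTCA, the binding motif of AP-1 (the Jun and Fos family). Of the 33, 9 held it (27.3%), against 1747 of 27457 promoters of the same length (6.36%). Among stress keratin and alarmin genes, 6 of 15 held it, and among basal keratinocyte genes, 2 of 15. The share was also 5 of 21 in junction genes (23.8%), 7 of 30 in interferon genes (23.3%) and 3 of 13 in smooth muscle genes (23.1%). The windows of Sprr1a and Sprr1b follow, 5′ to 3′ on the strand of the gene, with the motif in capitals. A match is a run of letters in this window and no measurement of binding.
Sprr1a, chr2:180752626-180752875, - strand: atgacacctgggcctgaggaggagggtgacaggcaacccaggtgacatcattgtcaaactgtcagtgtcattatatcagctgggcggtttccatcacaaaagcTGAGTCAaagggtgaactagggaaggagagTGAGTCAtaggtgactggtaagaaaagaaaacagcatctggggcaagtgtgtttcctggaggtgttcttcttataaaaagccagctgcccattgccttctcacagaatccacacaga
Sprr1b, chr2:180706356-180706605, - strand: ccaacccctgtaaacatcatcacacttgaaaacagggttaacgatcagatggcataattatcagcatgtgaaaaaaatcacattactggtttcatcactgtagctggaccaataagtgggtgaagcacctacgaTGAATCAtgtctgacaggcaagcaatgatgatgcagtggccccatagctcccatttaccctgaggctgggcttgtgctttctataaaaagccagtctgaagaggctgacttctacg
Sprr1a, whose window holds 2 matches, gave 10.88, 12.48 and 11.48 at week 15 and 8.98, 8.77 and 8.01 at week 29. Sprr1b holds 1.

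Stress keratins and alarmins, which keratinocytes raise in wounding and inflammation, also fell. Of 21 members, 14 were lower and 0 higher (66.7% lower against 22.4% of all genes), with a median of -0.87. S100a9, a subunit of calprotectin made by stressed keratinocytes and neutrophils, gave 9.01, 7.31 and 6.59 at week 15 and 4.58, 4.56 and 4.72 at week 29, an 8.09-fold fall (adjusted p = 0.000245, limma). The middle arrays were widely spread and all lay above the late arrays. The late values stood near the control mean of 4.91 and the week 6 mean of 4.21. Krt6c, a stress-inducible keratin, gave 12.47, 12.25 and 12.05 against 10.30, 9.98 and 7.55, with the third late array far under the others. Defb4, a beta-defensin, fell 7.34-fold, from 9.46, 10.81 and 10.85 to 7.45, 7.38 and 7.68. The 7 members that did not pass included Ptgs2, which encodes the inducible cyclooxygenase. Its signal stayed at the bottom of the range in both groups, between 3.01 and 3.27.

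Basal keratinocyte and junction genes fell as well. Of 23 basal members, 22 were lower (95.7% against 22.4% of all genes), with a median of -0.92. Krt14, the basal keratin, gave 13.97, 13.65 and 13.88 at week 15 and 13.17, 12.29 and 11.94 at week 29, a fall of 1.37 ± 0.23 (adjusted p = 0.000745, limma). Tp63, the transcription factor of the basal layer, gave 11.53, 11.35 and 11.84 against 10.90, 10.03 and 9.77. Krt5 fell by 0.89 ± 0.16 and Krt15 fell by 0.69 ± 0.15. The largest basal changes were in Sfn, the 14-3-3 protein stratifin (3.79-fold), Trim29 (3.56-fold) and Bcl11b, a zinc finger transcription factor (2.83-fold). In each of Krt14, Tp63, Krt5, Sfn and Trim29 the first week 29 array was the highest of its group. With the GAPDH difference as a covariate, 14 of the 23 were lower. Pdpn, encoding podoplanin, was the single member that did not pass (-0.08). Of 33 junction and identity genes, 27 were lower (81.8%) and 0 higher, with a median of -1.14. Pitx1, a homeobox factor, fell 3.77-fold, Rab25, an epithelial trafficking GTPase, 3.10-fold, and Cldn4, a tight junction claudin, and Spint1, an inhibitor of matriptase, 2.83-fold each.

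Proliferation genes were lower at week 29, but the number called depended on single arrays. Of 50 members, 38 were lower and 0 higher (76% lower against 22.4% of all genes), with a median of -0.73. Mcm3, a subunit of the replicative helicase, gave 8.18, 7.93 and 7.99 at week 15 and 7.46, 7.08 and 6.47 at week 29. Mcm6, of the same complex, fell 2.43-fold. Kif20a, a mitotic kinesin, and Ttk, a spindle checkpoint kinase, fell 2.02-fold and 2.01-fold. Mki67, the source of the Ki-67 antigen, gave 9.60, 9.33 and 10.17 against 9.46, 8.92 and 8.16. These groups overlapped, since the first late array lay above the second middle array (adjusted p = 0.0303, limma). The third week 29 array was the lowest in all 5 genes. Without it 16 of the 50 genes were called lower, without the third week 15 array 15 were, without the second week 29 array 25 were, and with the GAPDH difference as a covariate 13 were. Mki67 lost its call without week 15 replicate 1 or 3 and without week 29 replicate 2 or 3. Calls of all probe sets also became fewer in these fits. Of these, 5684 were lower in the main fit and 3817 without week 29 replicate 3. Without week 15 replicate 3, 4167 were lower, without week 29 replicate 2, 4076 were, and with the GAPDH covariate 2891 were. The list median stayed between -0.92 and -0.47 when any 1 array was left out and was -0.73 with the GAPDH covariate. With the sarcomere score in the fit the list median was 0.07.

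The lists were also set against each other within each array. The mean of the squamous list minus the mean of the basal list was -1.39, -0.23 and -0.70 at week 15 and -1.79, -1.48 and -1.40 at week 29. The groups did not overlap, but by a narrow margin, since the highest late array and the lowest middle array were almost equal. The control mean was -1.08 ± 0.08, and week 6 between -1.55 and -0.78. Stress keratins and alarmins minus basal genes overlapped (-3.28, -2.86 and -3.42 against -3.81, -3.36 and -3.39), as did junction minus basal genes. Proliferation minus basal genes was slightly higher at week 29 (-2.21, -1.98 and -2.33 against -2.59, -2.46 and -2.34). After adjustment for the sarcomere score, the squamous median was -1.35, the alarmin median -0.98, the junction median -0.61 and the basal median -0.35. None of the 10 largest falls was called there. Their values ran from -4.30 ± 0.93 for Stfa3 (adjusted p = 0.121, limma) and -4.26 ± 0.92 for Sprr3 (0.121) to -2.82 ± 0.75 for Ocm (0.177) and -2.78 ± 0.64 for Sprr1b (0.134), and the widest error was that of Serpinb12 (-2.93 ± 1.18, 0.307). The part of muscle content in the epithelial falls was not tested beyond these values.

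**Figure D2:**
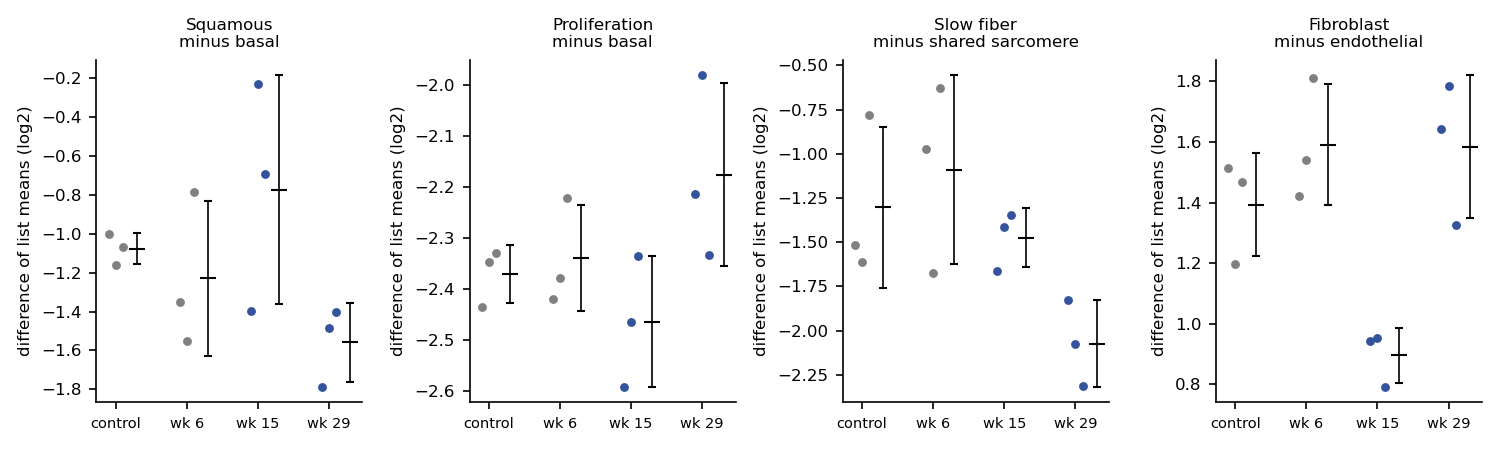
Difference between 2 list means on the log2 scale in each array (vertical axis), by group, with the group mean and SD of 3 arrays in black. Week 15 and week 29 are in blue, controls and week 6 in grey. Fibroblast minus endothelial genes separates the blue groups by the widest margin, while squamous minus basal and proliferation minus basal genes only just separate them.

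Among the stromal lists, fibroblast and matrix genes had the most positive median. Of 50 members, 25 were higher and 1 lower (50.0% higher against 21.1% of all genes), with a median of 0.59. Ogn, the small leucine-rich proteoglycan osteoglycin, gave 7.69, 7.59 and 7.65 at week 15 and 9.11, 9.71 and 9.31 at week 29, a rise of 1.74 ± 0.18 (3.33-fold, adjusted p = 6.46e-05, limma). The late values equalled the control mean of 9.36 and the week 6 mean of 9.27 within the spread, so week 15 was the group that stood apart. Mfap4, a microfibril-associated glycoprotein, rose 3.06-fold and Aspn, another leucine-rich proteoglycan, 2.87-fold. Mfap4 gave 8.52, 8.43 and 7.92 against 9.75, 10.32 and 9.65, and Aspn 7.43, 7.91 and 7.36 against 9.01, 9.42 and 8.83. The fibrillar collagens were less clear. Col1a2 did not pass, with overlapping groups and a difference of 0.58 (adjusted p = 0.0914, limma). Col1a1 gave 10.02, 9.82 and 9.35 at week 15 and 10.43, 10.81 and 10.33 at week 29 (adjusted p = 0.0346), and Col3a1 gave 11.05, 10.75 and 10.70 against 11.44, 11.81 and 11.16 (adjusted p = 0.0249). Col1a1 lost its call without any 1 of 5 arrays (week 15 replicates 2 and 3 and each week 29 array), and Col3a1 without week 15 replicate 2 or 3 or week 29 replicate 2. The list median was 0.39 without the second week 29 array. Vim, the mesenchymal intermediate filament, was 11.84, 11.96 and 11.67 against 11.67, 12.01 and 11.66 and did not pass.

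Tnc was the single member of the matrix list called lower. This gene, for the wound- and tumor-associated matrix glycoprotein tenascin-C, gave 7.92, 7.0 and 7.08 at week 15 and 5.90, 5.76 and 5.36 at week 29 (a 3.16-fold fall, adjusted p = 0.000358, limma). The control mean was 7.39 and the week 6 mean 6.49, so the late arrays were the lowest of the 4 groups. Without the third week 15 array, 2 members were called lower.

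Endothelial genes mostly did not pass. Of 27 members, 6 were lower (22.2%) and 1 higher (3.70%), against 22.4% and 21.1% of all genes, with a median of -0.18. Pecam1, the pan-endothelial adhesion molecule, was 9.12, 8.61 and 8.62 against 8.41, 8.66 and 8.82. Sox7, an endothelial transcription factor, gave 8.72, 8.32 and 8.82 at week 15 and 7.13, 7.21 and 7.05 at week 29, a fall of 1.49 ± 0.14 (adjusted p = 4.2e-05, limma). Plvap, the diaphragm protein of fenestrated and venular endothelium, gave 10.65, 10.51 and 10.25 against 9.35, 9.44 and 9.44. In Sox7 and Plvap the spread within each group was small beside the gap between them. Lyve1, the hyaluronan receptor of lymphatic vessels, was the single member called higher, at 9.07, 8.72 and 8.52 against 9.74, 9.97 and 9.53. Without the first week 29 array, or with array medians subtracted, 3 members were called higher, and with the GAPDH difference as a covariate 2 were lower. Within arrays, the fibroblast mean minus the endothelial mean was 0.94, 0.95 and 0.79 at week 15 and 1.64, 1.79 and 1.33 at week 29, with controls between 1.20 and 1.51.

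Genes of nerve rose in part. Of 20 neural and Schwann cell members, 10 were higher (50.0%) and 3 lower (15.0%), against 21.1% and 22.4% of all genes. S100b, a calcium-binding protein of Schwann cells that other cells also express, gave 6.72, 7.08 and 6.74 at week 15 and 8.03, 8.90 and 8.63 at week 29 (3.19-fold, adjusted p = 7.16e-05, limma). The neuronal genes Stmn2 (stathmin-2), Nefl (neurofilament light chain) and Prph (peripherin) rose between 2.77-fold and 3.17-fold, and the first late array was the lowest of its group in all 3. The 3 called lower were the myelination genes Egr2 (-0.49), Mbp (-0.50) and Erbb3 (-0.55), named after their values were seen. For Egr2 and Mbp another probe set of the same gene was called in the opposite direction.

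Genes of antigen presentation fell. Of 8 genes of MHC class II and its pathway, 6 were lower (75%) and 0 higher, against 22.4% and 21.1% of all genes. The median was -1.21. RT1-Da, the class II alpha chain of the rat D locus, gave 10.92, 10.69 and 10.30 at week 15 and 8.66, 9.09 and 8.65 at week 29 (3.56-fold, adjusted p = 0.000382, limma). RT1-Db1 fell 3.09-fold, RT1-Bb 2.96-fold and Cd74, the invariant chain, 2.58-fold, and no late array reached a middle array in any of them. The RT1 class II genes are related in sequence, so some of their probe sets may share signal. RT1-Ba (-0.16) and Ciita, the class II transactivator (0.02), did not pass. Irf8, a transcription factor of dendritic cells and monocytes, gave 8.19, 8.16 and 8.12 at week 15 and 6.71, 6.62 and 6.44 at week 29, a fall of 1.57 ± 0.10 (adjusted p = 2.9e-05). The 3 middle arrays were nearly equal, and the controls had a mean of 8.36.

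In the broader leukocyte lists the share lower was near the background of 22.4%, and the share higher was under its background of 21.1%. Of 39 myeloid and mast cell genes, 9 were lower (23.1%) and 3 higher (7.69%). Besides Irf8, the chemokine gene Ccl2 fell 2.21-fold. Il1b, for interleukin-1 beta, gave 8.08, 6.35 and 6.26 at week 15 and 5.70, 5.97 and 5.73 at week 29, so that its fold rested largely on the first middle array: the difference was -1.10 with that array and -0.51 without it. The 3 called higher were Ccl6 (1.05), Hdc, the histidine decarboxylase of mast cells (0.67), and Csf1r, the macrophage growth factor receptor (0.67). Without the first week 15 array 7 were called higher, and without the first week 29 array 5 were lower. Of 29 lymphocyte genes, 7 were lower (24.1%) and 0 higher, among them Coro1a, Cd2, Cd5 and Nkg7. That count was 3 without week 15 replicate 2, 2 without week 29 replicate 1, 11 without week 29 replicate 2 and 2 without week 29 replicate 3, and it was 0 with the GAPDH covariate. The second week 29 array had the highest Coro1a of its group (7.05 against 5.61 and 5.62).

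In the adipocyte list 7 of 19 members were higher (36.8%) and 3 lower (15.8%), against 21.1% and 22.4% of all genes. G0s2, an inhibitor of triglyceride hydrolysis, rose 5.25-fold, the lipid droplet proteins Plin5 and Plin4 rose 4.22-fold and 4.00-fold, and Lpl, lipoprotein lipase, rose 3.77-fold. Plin5 and Lpl are also expressed in oxidative striated muscle, and Adipoq, which defines fat cells, did not pass (0.34, adjusted p = 0.155). The 3 lower were Cidea (-1.50), Dgat2 (-1.42) and Pparg (-0.59), named after their values were seen. With the sarcomere score in the fit, the medians were 0.40 for fibroblast, -0.31 for endothelial, 0.24 for neural, -1.35 for MHC class II and 0.13 for adipocyte genes. There Ogn was at 1.88 ± 0.39, Plvap at -1.31 ± 0.22, Irf8 at -1.50 ± 0.22 and RT1-Da at -2.05 ± 0.60, against standard errors of 0.10 to 0.28 without it, and none of these was called.

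**Figure D3:**
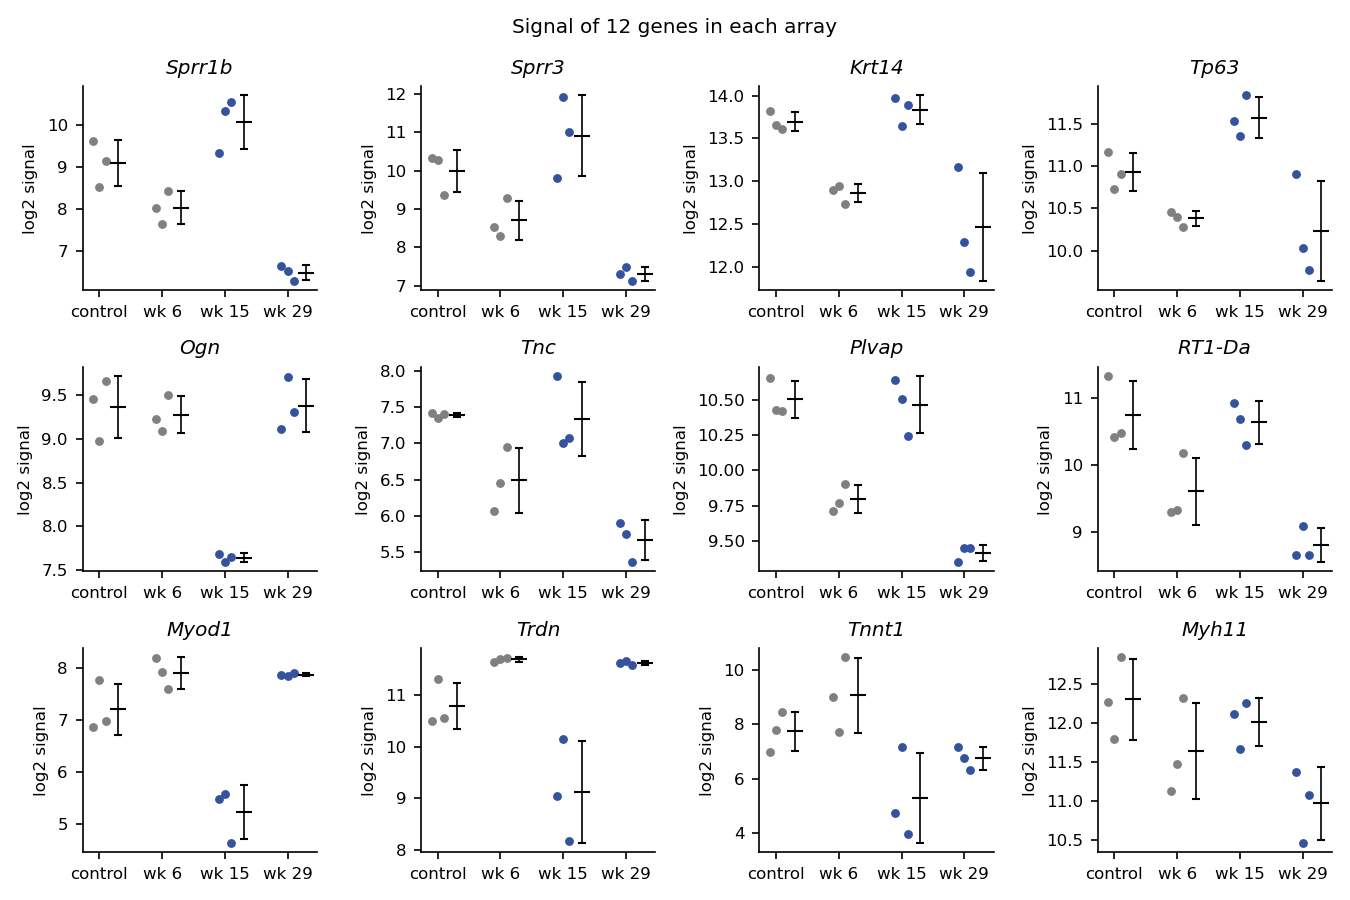
Log2 signal (vertical axis) of 12 epithelial, stromal and muscle genes in each array, by group, with the group mean and SD of 3 arrays in black. Week 15 and week 29 are in blue, controls and week 6 in grey. In 11 of the 12 genes the blue groups do not overlap, and Tnnt1 is the exception. Most of the 12 were named because their groups did not overlap, so this count follows from the choice. Among all genes, 52.1% did not overlap.

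Striated muscle genes rose nearly throughout. Of the 47 genes of the sarcomere and of excitation-contraction coupling, 42 were higher and 0 lower, with a median of 1.85. The share higher was 89.4%, against 21.1% of all genes. Tpm1 and Tpm2, members called higher, each had another probe set called in the opposite direction. Trdn, the triadin of the sarcoplasmic reticulum, gave 9.04, 10.14 and 8.17 at week 15 and 11.62, 11.66 and 11.58 at week 29, a rise of 2.50 ± 0.37 (5.66-fold, adjusted p = 0.0003, limma). The late arrays were nearly equal and the middle arrays widely spread. The second week 15 array was the highest and the third the lowest, as in the sarcomere score. Cacng1, a subunit of the muscle calcium channel, Jph1, a junctophilin, and Jsrp1, a junctional protein of the sarcoplasmic reticulum, rose between 5.19-fold and 5.60-fold in the same pattern of arrays.

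All 31 muscle energy genes were higher (100% against 21.1% of all genes), with a median of 1.97. Eef1a2, the elongation factor isoform of muscle and neurons, rose 6.10-fold, Prkag3, an AMP-activated kinase subunit, 5.65-fold, and Phkg1, the muscle phosphorylase kinase, 5.44-fold. Ckm, muscle creatine kinase, gave 13.87, 14.21 and 13.07 against 14.52, 14.58 and 14.59. Of 26 regulators, synapse and proteolysis genes, 20 were higher (76.9%) and 0 lower. Myod1, the myogenic transcription factor, gave 5.48, 5.57 and 4.63 at week 15 and 7.86, 7.84 and 7.90 at week 29, a rise of 2.64 ± 0.27 (6.25-fold, adjusted p = 5.18e-05, limma). Myf6 and Myog, of the same family, rose 6.29-fold and 5.18-fold. The 6 that did not pass included Chrng, the fetal acetylcholine receptor subunit (0.01), and Mymk, the fusion protein myomaker (0.11), named after their values were seen.

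Sequence upstream of muscle genes is shown for the same reason as for the Sprr genes. Of 105 striated muscle genes with a RefSeq promoter on GRCr8, 38 held CAGCTG (36.2%), an E-box of the kind that myogenic factors bind, in the 250 bases before the start, against 11.9% of all promoters. Other lists had shares like this one, with 5 of 13 adipocyte (38.5%), 2 of 6 MHC class II (33.3%), 4 of 13 smooth muscle (30.8%) and 5 of 19 lymphocyte promoters (26.3%). The MEF2 motif was in 17 of the 105 (16.2%) against 1.75%, and TGANTCA in 8 (7.62%) against 6.36%. CAGCTG reads the same on both strands. Ckm holds 2 of these E-boxes and Myh4 holds 1, in capitals here.
Ckm, chr1:88189211-88189460, + strand: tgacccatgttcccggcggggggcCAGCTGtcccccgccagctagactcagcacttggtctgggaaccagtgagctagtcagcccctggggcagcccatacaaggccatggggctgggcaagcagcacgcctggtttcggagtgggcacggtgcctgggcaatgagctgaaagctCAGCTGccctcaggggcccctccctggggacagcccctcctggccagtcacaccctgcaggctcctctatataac
Myh4, chr10:52421898-52422147, + strand: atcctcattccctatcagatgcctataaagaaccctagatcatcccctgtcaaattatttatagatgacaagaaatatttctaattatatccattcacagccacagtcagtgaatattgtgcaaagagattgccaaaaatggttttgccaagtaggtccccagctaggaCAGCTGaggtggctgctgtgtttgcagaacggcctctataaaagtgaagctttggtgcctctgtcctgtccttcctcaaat
As above, these are matches of letters in a window and no measurement of binding.

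Fast fiber genes rose, and 10 of 12 slow fiber genes had a positive change, with a smaller share of them called. Of 16 fast genes, 15 were higher (93.8% against 21.1% of all genes), with a median of 1.42. Myh4, the fastest myosin heavy chain, gave 9.0, 9.05 and 8.49 at week 15 and 10.14, 11.45 and 11.74 at week 29 (4.80-fold, adjusted p = 0.00276, limma). Myh2 gave 11.89, 12.41 and 9.77 against 13.27, 12.89 and 12.78 (adjusted p = 0.0286). Its change of 1.62 was 0.83 without the third week 15 array, and it lost its call without that array or any 1 of the week 29 arrays. Myh1 was the fast gene that did not pass (0.33). Myoz3, a calcineurin-binding protein of the Z-disc, Mybpc2, fast myosin-binding protein C, and Casq1, the fast calsequestrin, rose 5.85-fold, 3.84-fold and 3.35-fold. The fast troponins Tnnt3, Tnnc2 and Tnni2 rose by 1.10, 0.59 and 0.97 on the log2 scale. Without the third week 15 array those of Tnnc2 and Tnni2 were 0.33 and 0.63, that of Ckm was 0.52 in place of 0.84, and the fast median was 0.91.

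Of 12 slow fiber genes, 6 were higher (50.0%) and 1 lower (8.33%), against 21.1% and 22.4% of all genes. The median was 1.48 (0.89 without the third week 15 array). Atp2a2, a member called higher, had another probe set called in the opposite direction. Myoz2, Casq2, Tnni1 and Fhl2 rose between 3.48-fold and 4.19-fold, and Tnni1, slow troponin I, gave 9.89, 10.72 and 8.38 against 11.67, 11.72 and 11.55. The other slow troponins overlapped between the groups. Tnnt1 was 4.75, 7.15 and 3.97 at week 15 and 7.16, 6.77 and 6.32 at week 29 (1.46 ± 0.77, adjusted p = 0.164, limma), and Tnnc1 was 5.90, 7.77 and 4.89 against 8.32, 7.93 and 7.16 (1.62 ± 0.75, adjusted p = 0.119). Both were called, at 2.39 and 2.41, when the second week 15 array was left out. Myh7, the slow myosin heavy chain, stayed between 3.39 and 4.34 on these 6 arrays, while the week 6 arrays averaged 6.35. Tpm3, a tropomyosin of slow fibers and of many non-muscle cells, was the member called lower (-1.13), named after its value was seen. Within arrays, slow minus shared sarcomere genes was -1.67, -1.41 and -1.35 at week 15 and -1.83, -2.08 and -2.32 at week 29, with no overlap. Fast minus shared sarcomere genes was 1.94, 1.73 and 1.88 against 1.49, 1.58 and 1.53.

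The size of the muscle change varied with the signal level of the probe set. Among striated muscle genes with a mean log2 signal of 9 to 11, the median change was 2.17 (39 genes), and from 11 to 13 it was 1.97 (30 genes). From 13 upward it was 1.10 (25 genes), and under 7 it was 0.42 (15 genes). Acta1, skeletal actin, was 14.57, 14.66 and 14.03 against 14.71, 14.68 and 14.7, at the upper end of the array's range, and did not pass (adjusted p = 0.128, limma). Fast sarcomeric genes are common among the highest signals, and the part of signal level in the difference between fast and shared sarcomere lists was not tested.

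**Figure D4:**
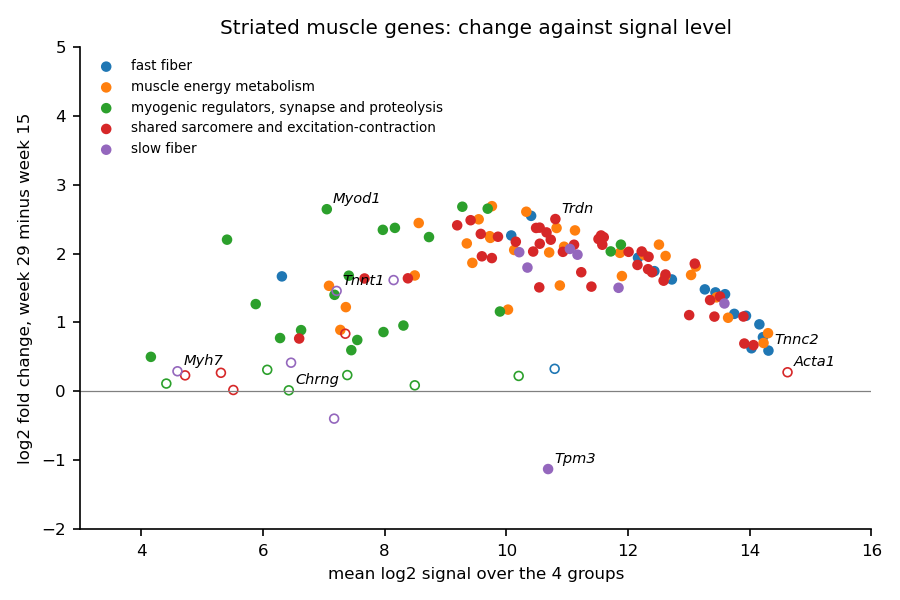
Log2 fold change from week 15 to week 29 (vertical axis) of striated muscle genes against their mean log2 signal over the 4 groups (horizontal axis), coloured by list, with open points for genes that did not pass the limma test. Changes are largest between signals of 9 and 13 and smaller at both ends, where Acta1 and Tnnc2 (high) and Chrng and Myh7 (low) lie.

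Of 18 smooth muscle genes, 5 were higher (27.8%) and 3 lower (16.7%), with a median of -0.21. These called shares are near those of all genes, 21.1% and 22.4%. Without regard to the test, 8 of the 18 were lower with no overlap and 5 were higher with none. Of all genes, 26.7% and 25.4% were. The 3 called lower were contractile genes. Myh11, smooth muscle myosin, gave 12.11, 11.66 and 12.25 at week 15 and 11.36, 10.46 and 11.08 at week 29 (adjusted p = 0.0274, limma). Actg2, enteric smooth muscle actin, had a mean of 10.94 ± 0.22 (SD, n = 3) at week 15 and gave 9.71, 8.63 and 9.56 at week 29 (adjusted p = 0.0269). Tagln, transgelin, had a change of -1.40 and was named after its value was seen. None of the 3 counts as a stable call: 0 smooth muscle genes were called lower without week 15 replicate 1, without week 15 replicate 3, without week 29 replicate 2 or with the GAPDH covariate, 1 without week 29 replicate 3, 5 when control array 2 or 3 was left out, and 6 when the third week 6 array was. Acta2 was 8.76, 9.0 and 9.07 against 8.77, 8.28 and 8.85. The smooth muscle marker Cnn1 changed by -1.22 with no overlap and did not pass (adjusted p = 0.0643, limma). The 5 higher were Nexn, Lmod1, Synpo2, Hspb6 and Smtn, of which Nexn (nexilin), Hspb6 and Synpo2 are known in striated muscle too. Lmod1, a leiomodin, gave 8.25, 8.04 and 7.69 against 9.37, 9.82 and 10.22 (3.52-fold). Synpo2 had another probe set called in the opposite direction.

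With the sarcomere score in the fit, muscle medians were -0.03 for shared sarcomere, 0.24 for energy, -0.29 for fast and -0.29 for slow genes. The first of these follows from construction, since those 47 genes make up the score. Myod1 was at 1.37 ± 0.38 (adjusted p = 0.189, limma) and Trdn at 0.30 ± 0.29 there.

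**Figure D5:**
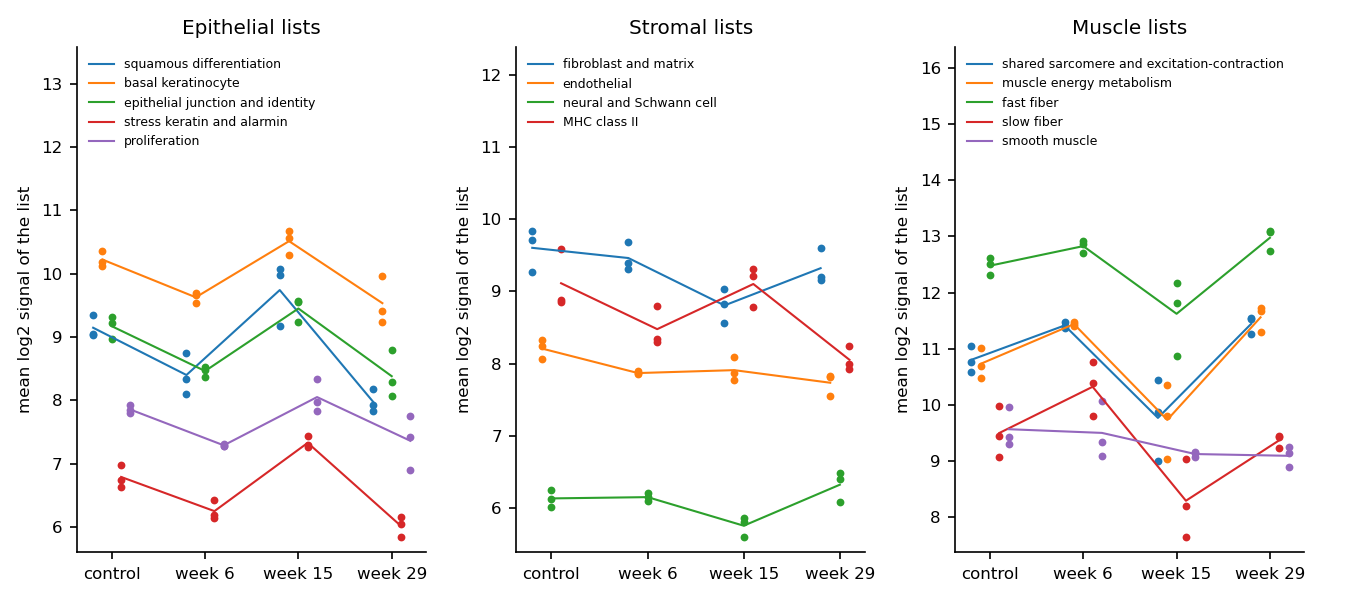
Mean log2 signal of each list in each array (vertical axis), by group, for epithelial, stromal and muscle lists, with lines joining the group means. From week 15 to week 29 the epithelial lists go down, the striated muscle lists go up and the fibroblast list goes up, and the week 29 arrays lie close to the week 6 arrays in most lists.

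Metabolic programs differed in direction. Of 43 genes of the mitochondrial respiratory chain, 42 were higher (97.7% against 21.1% of all genes), with a median of 0.76. Ndufs1, of complex I, gave 9.67, 10.38 and 9.86 at week 15 and 11.15, 11.33 and 11.18 at week 29 (2.38-fold, adjusted p = 0.000209, limma). Sdhb, Uqcrfs1 and Ndufs7 rose between 2.06-fold and 2.14-fold. Of 29 cytosolic ribosomal proteins, 25 were lower (86.2% against 22.4% of all genes), with a median of -0.40, and 5 were with the GAPDH covariate. Rpl3 gave 13.86, 13.78 and 13.95 against 13.50, 13.00 and 12.83, and Rpl14, Rps3 and Rps15 fell between 1.46-fold and 1.57-fold. These medians were 0.31 and -0.11 with the sarcomere score in the fit.

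Of 36 genes of glutathione metabolism, the NRF2 response and xenobiotic metabolism, 24 were lower (66.7%) and 6 higher (16.7%). The shares of all genes were 22.4% and 21.1%. Slc7a11, the cystine importer that feeds glutathione synthesis, gave 8.37, 8.70 and 9.31 at week 15 and 6.57, 5.90 and 5.48 at week 29 (7.01-fold, adjusted p = 5.85e-05, limma). The late arrays were all under the control mean of 8.54 and the week 6 mean of 7.73. The glutathione transferases Gsta3 and Gstm1 fell 4.07-fold and 3.80-fold, and Gclm, a subunit of the enzyme that starts glutathione synthesis, fell 3.49-fold. Gpx3 (1.43) and Gsta1 (1.02) were among the 6 higher and were named after their values were seen. Slc7a11 was at -1.66 ± 0.49 (adjusted p = 0.203) with the sarcomere score in the fit, and the list median moved from -0.88 to -0.23.

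Of 25 sterol and fatty acid synthesis genes, 17 were lower (68%) and 1 higher (4%), against 22.4% and 21.1% of all genes. Sqle, squalene epoxidase, fell 3.93-fold, Cyp51, of the sterol pathway, 2.85-fold, and the fatty acid enzymes Elovl6 and Fasn 2.72-fold and 2.61-fold. The single gene called higher was the desaturase gene Fads1 (0.76), named after its value was seen, and 2 were without week 15 replicate 2. The regulators Srebf1 (-0.21) and Srebf2 (-0.06) did not pass.

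Of 18 clock genes, 8 were higher (44.4%) and 0 lower, against 21.1% and 22.4% of all genes. Cry1, a clock repressor, gave 7.39, 7.40 and 7.46 at week 15 and 8.14, 8.76 and 8.52 at week 29 (2.08-fold, adjusted p = 0.000413, limma). Bhlhe41 rose 3.85-fold, Nr1d1 (REV-ERB alpha) 1.84-fold and Rora 1.80-fold. Bmal1 (0.28), Per2 (-0.02), Per3 (-0.74) and Dbp (0.56) did not pass. The labels give no hour of sampling. Bhlhe41 was at -0.21 and Cry1 at 0.92 ± 0.35 with the sarcomere score in the fit. Without week 15 replicate 2, 2 clock genes were called lower, and without week 6 replicate 3, 1 was.

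Of 28 immediate early genes, 13 were lower (46.4%) and 3 higher (10.7%), against 22.4% and 21.1% of all genes. Junb gave 9.49, 9.39 and 9.45 at week 15 and 8.43, 8.07 and 8.26 at week 29 (2.28-fold, adjusted p = 0.000134, limma). Egr1 fell 2.60-fold and Ier5 2.24-fold. Those called higher were Nr4a1 (1.22), Gadd45b (0.50) and Jun (0.45), and 1 was called without week 15 replicate 3 or week 29 replicate 3 and 0 with the GAPDH covariate. Of 36 interferon response genes, 9 were lower (25%) and 1 higher (2.78%), against 22.4% and 21.1% of all genes. Bst2, tetherin, fell 2.08-fold and Tap1, the peptide transporter of antigen processing, 1.57-fold. Slfn4 gave 8.66, 7.45 and 7.22 against 5.99, 6.84 and 6.21. Igtp, an interferon-induced GTPase, was the gene called higher (0.90, adjusted p = 0.0336). Its call was lost without week 15 replicate 2 or 3 and without week 29 replicate 2 or 3, and 2 genes were called higher without week 15 replicate 1.

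Cdkn1a, the p21 inhibitor of the cell cycle, gave 10.05, 10.48 and 10.09 at week 15 and 10.72, 11.31 and 11.52 at week 29, a rise of 0.97 ± 0.20 (1.96-fold, adjusted p = 0.00261, limma). The control mean was 10.70 and the week 6 mean 10.67, so the middle arrays were lower than both.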

How the data were processed

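RNA was measured with 12 Affymetrix rat expression arrays, 3 in each of 4 groups, and weeks 29 and 15 were compared. The authors made the deposited log2 probe set signals with Affymetrix software (Expression Console), as the submitters' processing notes state. No source used here names the summarization method or holds detection calls, so no value was set against background, and precision depends on the number of arrays. Values ran from 2.49 to 14.71, and array medians from 6.41 to 6.48. No 2 arrays were identical (7 to 47 equal values per pair).

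The test was limma's moderated two-sided test (version 3.58.1, R 4.3.3, functions lmFit and eBayes) in 1 fit of all 12 arrays with 8 residual degrees of freedom, adjusted by Benjamini-Hochberg over 31042 probe sets and called under 0.05. The script was tested on simulated data. By the platform annotation, 20826 probe sets had 1 symbol, 436 had several and 9780 had no entry. A gene was read from its single-symbol probe set of highest mean. In 65 genes, probe sets were called in opposite directions. The 25 lists held 836 genes, of which 722 were measured. Members and lists were chosen with earlier results of these data known. Named were the 10 largest rises and falls among genes called with groups that did not overlap, up to 4 such members of each list, a set of marker genes and the slow and fast troponins. Other genes, including list members given only with a value that did not pass, were chosen after their values were seen. Replicate numbers were not used to pair the samples. Alternatives changed the arrays fitted, normalization, filters, variance model, probe set choice, block and covariates.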

Additional observations from a re-analysis of the deposited data

How the results depend on the processing

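The epithelial and striated muscle counts kept their direction in every alternative except the sarcomere score covariate. With that covariate 0 probe sets, and 0 epithelial, stromal and muscle genes, were called in either direction. The list medians that turned sign there were proliferation (0.072), slow fiber (-0.29), fast fiber (-0.29) and shared sarcomere (-0.032). Turns of sign were counted only among named genes called in the main fit. These genes were Ttk (0.085), Mki67 (0.22), Myoz2 (-0.47), Tnni1 (-0.60), Mybpc2 (-0.44), Casq1 (-0.37), Jsrp1 (-0.064), Myh2 (-1.14), Ckm (-0.39), Tnnt3 (-0.24), Tnnc2 (-0.36), Tnni2 (-0.34), Bhlhe41 (-0.21), Nr1d1 (-0.030) and Nr4a1 (-0.15). The GAPDH covariate left 6915 called probe sets, with 2891 lower (58.2% higher in place of 48.3%), 16 stromal genes were lower and the endothelial median was 0.036. The myeloid and mast cell median, -0.093, was 0.127 with that covariate, 0.078 without week 15 replicate 1 and 0.0080 with the signal filter. With a 2-fold minimum, 2521 probe sets were called (1539 higher, 982 lower), with 77 epithelial genes (77 lower) and 39 stromal genes (24 higher, 15 lower). The cause was not tested.

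Leaving out each array in turn gave 8115 to 11490 called probe sets, 4298 to 5468 higher and 3817 to 6350 lower, 100 to 140 epithelial genes, 66 to 85 stromal genes (36 to 50 higher, 24 to 37 lower) and 116 to 128 muscle genes (114 to 123 higher). None of the 124 named genes called in the main fit turned sign in these fits. Named genes that did not pass in the main fit were not counted for this. The fit with the replicate number as a block called 10521 probe sets, of which 10283 were shared, and changed no call of a named gene. Deviations of same-numbered arrays correlated at -0.26, 0.12 and -0.41, and those of differently numbered arrays between -0.32 and 0.52. The numbers were not taken as pairs, but so few values cannot settle whether they are. The block called 6 smooth muscle genes lower in place of 3. The 6 arrays of both weeks alone gave 9122 called probe sets and quantile normalization 11364. A mean signal of at least 6 left 17798 probe sets, of which 9586 were called. Some list counts moved by more than 1.5 times. The 6 arrays alone called 18 proliferation genes lower in place of 38, and 6 smooth muscle genes lower in place of 3, as quantile normalization did. The signal filter left 7 stress keratin and alarmin genes called lower in place of 14 and 3 lymphocyte genes in place of 7, with fewer genes tested. With the median of all probe sets, 5 interferon genes were lower in place of 9. The 2-fold minimum left 11 basal, 6 proliferation, 8 sterol, 5 immediate early and 0 ribosomal genes lower, and 11 fibroblast, 13 myogenic regulator, 2 clock and 6 respiratory chain genes higher.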

Other observations

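Hbb, a beta-globin gene of red blood cells outside every list, was chosen after its values were seen. It gave 8.12, 8.07 and 8.32 at week 15 and 10.28, 10.57 and 10.63 at week 29, a rise of 2.33 ± 0.18 (SE) on the log2 scale (adjusted p = 3.2e-05, limma). The control mean was 9.29 and the week 6 mean 10.60, so week 29 stood close to week 6. Its probe set can cross-hybridize within the globin family.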
